A study of Rattus norvegicus with 8 samples.

Results

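Hox genes encode the homeodomain transcription factors that give the cells of an embryo their position along the head-to-tail axis. The members described here were all genes of the rat thoracic aorta gene table whose symbol is Hox, a cluster letter from a to d and a paralogue number: 20 of 19238 genes. The HoxB cluster gave 8 of them (Hoxb2 to Hoxb9), the HoxC cluster 6 (Hoxc4, Hoxc5, Hoxc6, Hoxc8, Hoxc9 and Hoxc10) and the HoxD cluster 6 (Hoxd3, Hoxd4, Hoxd8, Hoxd9, Hoxd10 and Hoxd13). HoxA genes were not analysed here. Goto-Kakizaki (GK) rats, which develop diabetes without obesity, carry the group label diabetic macroangiopathy and were compared with Wistar rats labelled control. All animals were 7 to 8 weeks old, the tissue of all samples was thoracic aorta, and no drug, diet or transgene is named for either group. Each group had 4 libraries of total RNA, numbered 7 to 10 in both. Effects of strain and of diabetes cannot be told apart, since they divide the samples alike. The labels do not say that libraries came from separate animals, so p-values measure the spread between these samples only, which may be technical.

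Hox genes lie in the order in which they act. Genes with low paralogue numbers, at one end of a cluster, are switched on early and reach far towards the head, and those with high numbers are kept to the trunk and tail, so adult mesenchymal and smooth muscle cells of different body levels keep different sets. Retinoic acid opens the clusters, Polycomb complexes hold the silent end closed, trithorax proteins hold the active end open, and Hox proteins bind DNA with TALE homeodomain partners (Pbx and Meis proteins). Hox expression in an adult vessel is therefore often read as a record of where its cells arose.

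Total gene counts ran from 11760397 to 16266151 per library. Smooth muscle markers, the defining genes of aortic media, summed to between 5804 and 15424 CPM (counts over library size, scaled with TMM factors) in controls and between 2774 and 8028 in GK libraries. None of the marker genes found in the table was at 0 in all 8 libraries. The libraries numbered 9 stood apart in both groups. Nerve and Schwann cell markers summed to 569.8 CPM in control 9 against 83.6 to 154 in the other controls, and to 1544 CPM in GK 9 against 279 to 439 in the other GK libraries. Brown adipocyte markers were lowest in the same libraries, at 559.6 CPM in control 9 (881 to 2852 in the other controls) and 1459 in GK 9 (4205 to 4854). Skeletal muscle markers summed to 15536 CPM in GK 9 and to at most 46.8 in every other library. TMM factors were highest there too, 1.24 in control 9 and 1.18 in GK 9. Transcripts of the major histocompatibility complex, which differ between strains, followed the labels in both: RT1-A1 was at 16.8 CPM in control 9 (controls 16.8 to 27.5) and at 227 in GK 9 (GK 181 to 266). The expressed ranges and the comparisons of GK with control are therefore given with and without both libraries.

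**Figure D1:**
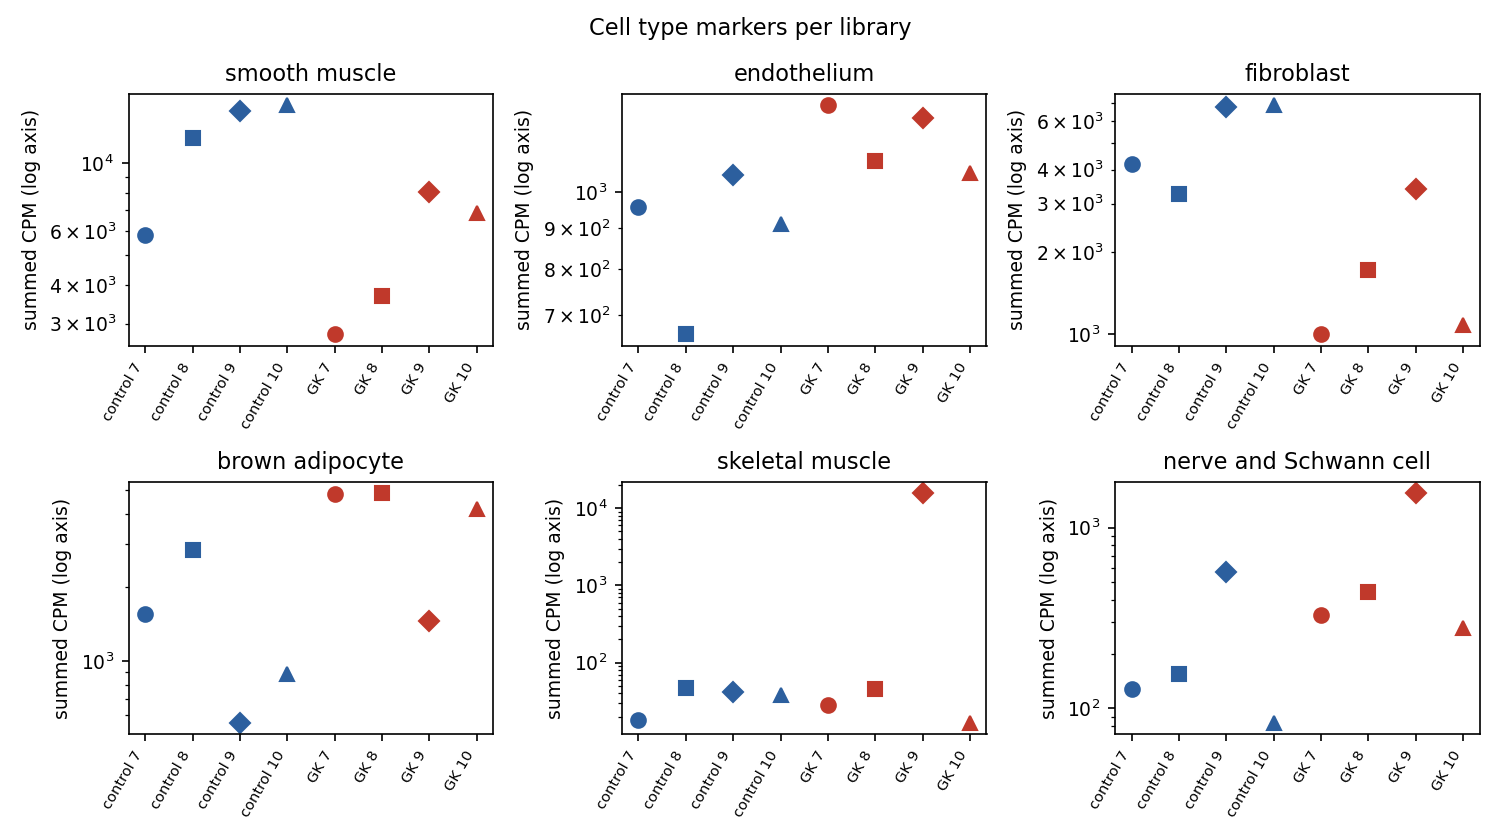
Summed CPM (log axes) of 6 fixed lists of cell type markers, 1 point per library, controls in blue and GK in red. The diamonds are the libraries numbered 9, with the highest nerve and Schwann cell sums of their groups (569.8 and 1544), the lowest brown adipocyte sums, and skeletal muscle markers at 15536 in GK 9.

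Among the 20 members, the positional code shared by all libraries of a group was anterior to middle. Posterior genes that are not among the members could not be seen. Genes high in single libraries fall outside such a code, as did Hoxc10, at 8.06 FPKM in control 9 and 8.16 in GK 9. Taking a gene as expressed in a group when its deposited FPKM (fragments scaled by gene length and library size, which can be compared between genes) was at least 1 in all 4 libraries, controls expressed 9 Hox genes and GK 8. In HoxB the expressed range was paralogues 2 to 6 in controls and 2 to 7 in GK. In HoxC it was Hoxc4 and Hoxc6 in controls and Hoxc6 in GK. In HoxD it was Hoxd4 and Hoxd8 in controls and Hoxd8 in GK. Without both libraries numbered 9 the same genes made up each range, 9 in controls and 8 in GK. Under this rule leaving out libraries can only add genes, so the match does not show that the ranges are independent of them. These ranges are descriptions with no test, and a gene that enters or leaves them can lie close to 1 FPKM. Hoxb7 (0.840), Hoxc5 (0.902), Hoxc8 (0.953) and Hoxd9 (0.850) missed the control range through control 8 alone. Without control 8 the controls expressed 13 Hox genes. At 0.5 FPKM or more in all 4 libraries, controls expressed 13 and GK 10. With FPKM rescaled by TMM factors and the threshold at 1, controls expressed 10 genes and GK expressed 8 genes.

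HoxB was read from its anterior end in every library. Hoxb4, known for its part in blood stem cell renewal, had the highest mean of the cluster, with 9.44, 7.52, 10.7 and 14.2 FPKM across controls 7 to 10 and 4.22, 7.08, 8.43 and 4.35 across GK 7 to 10. Hoxb3, a hindbrain and pharyngeal arch gene, was at 3.30, 3.66, 6.05 and 7.01 FPKM in controls and 1.67, 2.93, 5.04 and 2.28 in GK. Hoxb4 was above Hoxb3 in all 8 libraries. Hoxb5, named in endothelial and enteric nerve development, was at 4.21, 1.44, 4.76 and 4.52 FPKM in controls and 1.72, 1.17, 5.54 and 1.10 in GK. Hoxb2, which acts in the hindbrain, ranged from 1.44 to 5.09 FPKM, Hoxb6 from 1.01 to 5.53 and Hoxb7 from 0.840 to 4.26. The mean FPKM of Hoxb2, Hoxb3 and Hoxb5 in controls (3.85 ± 1.38, 5.005 ± 1.81 and 3.73 ± 1.54, SD, n = 4) lay within 1 SD of each other. Levels past Hoxb7 were lower. Hoxb8 stayed under 1 FPKM everywhere (0.0641 to 0.857), while Hoxb9, which patterns the rib-bearing trunk, reached 2.66 in control 9, 1.27 in control 10 and 1.54 in GK 9 and had no count in GK 7 and GK 8.

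HoxC was led by Hoxc6, a thoracic gene, which passed 1 FPKM in every library. Its values were 7.26, 7.91, 20.2 and 7.17 FPKM in controls and 5.47, 1.996, 20.2 and 7.01 in GK. Hoxc8, which patterns thoracic vertebrae and is also known in fat cell precursors, was at 1.80, 0.953, 12.0 and 2.47 FPKM in controls and at 0.833, 0, 13.9 and 0.990 in GK. Hoxc5 was at 1.77, 0.902, 7.62 and 2.04 FPKM in controls and at 0.765, 0.195, 8.35 and 0.844 in GK. All 3 genes were highest in control 9 and GK 9, and the groups overlapped. Hoxc4 ranged from 1.07 to 4.65 FPKM in controls and was at 6.23 in GK 9, with the other GK libraries between 0.713 and 0.903. With those libraries left out, Hoxc4 was at or above 1 FPKM in 3 of 3 controls and in 0 of 3 GK libraries.

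HoxD was led by Hoxd8, a mid-trunk gene, at 3.75, 4.60, 14.0 and 5.65 FPKM in controls and 4.51, 4.74, 9.49 and 2.85 in GK. Hoxd9, of the same paralogue group as Hoxb9 and Hoxc9, was at 1.11, 0.850, 6.31 and 1.33 FPKM in controls and 0.444, 0.630, 2.49 and 1.11 in GK. Hoxd4, which acts in the hindbrain and neck, was at 1.02, 1.26, 4.06 and 1.52 FPKM in controls and 0.753, 0.916, 2.90 and 0.764 in GK. Here too the libraries numbered 9 were the highest of their group for each gene. Hoxd3, studied in endothelial cells for its role in vessel growth, passed 1 FPKM only in control 9, at 1.15. Hoxd10, a lumbar and limb gene, stayed at or under 0.669 FPKM, and Hoxd13, the gene of the digits and the hind end, had 2 counts in GK 9 and 0 in the other 7 libraries.

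**Figure D2:**
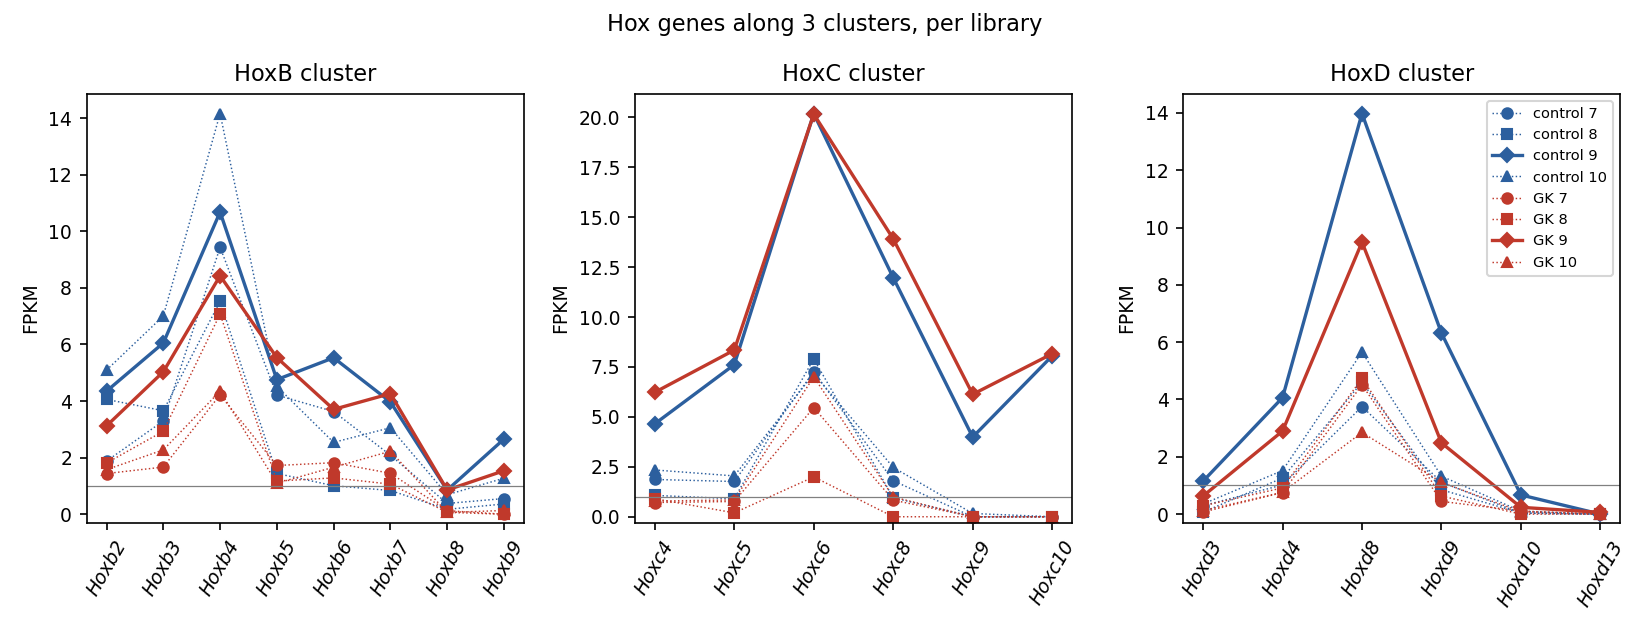
Deposited FPKM of the 20 Hox genes along the HoxB, HoxC and HoxD clusters, from low to high paralogue number, 1 line per library (controls blue, GK red, the libraries numbered 9 as solid lines), with a grey line at 1 FPKM. HoxB peaks at Hoxb4, HoxC at Hoxc6 and HoxD at Hoxd8, and Hoxc9 and Hoxc10 pass 1 FPKM in the solid lines only (up to 8.16).

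The order along the DNA matched the paralogue numbers in the files' own coordinates; of their build the sources used here say nothing. From the first to the last member described here, HoxB spanned chr10:84119884-84202688, HoxC chr7:144577465-144650129 and HoxD chr3:61590376-61670282. These spans took between 72.7 and 82.8 kb, and they leave out any gene of a cluster that is not a member. The RefSeq table of promoters (build GRCr8, 250 bases before to 50 after the start) held 7 of the 20 members. Shown here are Hoxd8, expressed in all 8 libraries, and Hoxd4 and Hoxc4, each at 1 FPKM or more in all controls but in 1 GK library; each reads 5′ to 3′ and capitals mark CG dinucleotides, the sites of DNA methylation.
Hoxd8, chr3:80014973-80015272, plus strand: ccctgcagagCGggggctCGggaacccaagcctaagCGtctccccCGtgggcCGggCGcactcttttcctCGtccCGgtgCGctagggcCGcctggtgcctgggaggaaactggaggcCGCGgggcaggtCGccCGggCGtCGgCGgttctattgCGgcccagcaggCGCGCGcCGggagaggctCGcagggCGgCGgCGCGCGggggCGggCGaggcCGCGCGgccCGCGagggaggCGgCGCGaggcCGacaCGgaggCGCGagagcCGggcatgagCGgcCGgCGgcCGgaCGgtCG
Hoxd4, chr3:80021636-80021935, plus strand: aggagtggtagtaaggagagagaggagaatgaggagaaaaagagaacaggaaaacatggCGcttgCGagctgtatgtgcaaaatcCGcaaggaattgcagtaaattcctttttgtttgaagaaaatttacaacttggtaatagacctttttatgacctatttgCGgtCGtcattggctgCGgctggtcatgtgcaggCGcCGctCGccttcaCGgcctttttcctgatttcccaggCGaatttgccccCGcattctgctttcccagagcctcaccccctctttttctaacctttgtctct
Hoxc4, chr7:136048809-136049108, plus strand: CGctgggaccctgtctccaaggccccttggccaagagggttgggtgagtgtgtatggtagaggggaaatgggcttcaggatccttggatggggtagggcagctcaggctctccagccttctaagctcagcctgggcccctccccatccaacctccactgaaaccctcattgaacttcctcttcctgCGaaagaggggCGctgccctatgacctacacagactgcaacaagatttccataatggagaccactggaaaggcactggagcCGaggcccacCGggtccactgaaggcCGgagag
The promoter of Hoxd8 held 49 CG dinucleotides at 79.0% GC, that of Hoxd4 held 12 at 47.3% GC and that of Hoxc4 held 6 at 59.0% GC, beside medians of 7 and 51.7% over all 33469 promoters of the table. AGGTCA, the half-site of nuclear receptors such as the retinoic acid receptors, was found on either strand in 3 of the 7 Hox promoters (Hoxc4, Hoxd4 and Hoxd10) and in 16.2% of all promoters. TTTATG, a core that caudal and posterior Hox proteins bind, was in 1 of the 7, Hoxd4, and in 12.7% of all; in Hoxd4 it overlapped the AGGTCA match on the opposite strand. The CCAAT box was in 3 of the 7 and in 37.5% of all, and the Pbx-Hox composite TGATNNAT in 0 of the 7 and in 9.1% of all. These matches are descriptions of the letters.

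Libraries of both groups differed at the posterior end of HoxC. Hoxc10, known from the lumbar cord, the hindlimb and subcutaneous fat, had 175 counts in control 9 and 194 in GK 9 and no count in any of the other 6, where 3 counts would be between 0.205 and 0.277 CPM. Its level was 8.06 FPKM in control 9 and 8.16 in GK 9, next to 20.2 for Hoxc6 in each. Hoxc9, which sets trunk identity in motor neurons and marks white fat, had 44 counts in control 9, 74 in GK 9, 2 in control 10 and 0 in the rest. Both genes were picked for a description by library after their values were seen. The HoxC range by library was Hoxc4 to Hoxc10, all 6 genes at 1 FPKM or more, in control 9 and GK 9. It ended at Hoxc8 in controls 7 and 10, held Hoxc4 and Hoxc6 in control 8, and was Hoxc6 alone in GK 7, GK 8 and GK 10. These FPKM are not scaled with TMM factors, which ran from 0.826 in GK 10 to 1.24 in control 9. Some genes lay just under 1 FPKM, such as Hoxc8 at 0.990 in GK 10 and 0.953 in control 8.

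The difference ran through most of the family. The libraries numbered 9 were both above all other 6 in CPM for 14 of 20 Hox genes, among them 8 of the 13 that were tested, while this was so for 10.1% of the 13673 genes tested. For the pairs numbered 7, 8 and 10 the same count was 0 of 20 Hox genes each. Both libraries were at least 2-fold above every other for 4 Hox genes (Hoxc5, Hoxc8, Hoxc9 and Hoxc10), of which 2 of the 13 were tested, and for 0.527% of all genes tested. The lower of the pair was 4.28 times the highest of the other 6 libraries for Hoxc8, 3.29 times for Hoxc5, 1.90 times for Hoxc6, 1.77 times for Hoxd4 and 1.51 times for Hoxd8. The exceptions were Hoxd13 and 5 genes of HoxB: Hoxb2, Hoxb3, Hoxb4, Hoxb5 and Hoxb6, with ratios from 0.553 for Hoxb4 to 0.924 for Hoxb5. The anterior genes of the other clusters, such as Hoxc4 (1.75 times) and Hoxd3 (1.65 times), were highest in both. Among 20 other homeobox genes tested, 3 were highest in both libraries and 1 was at least 2-fold above.

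Summed over all 20 genes, controls 7 to 10 had 67.7, 60.3, 156 and 88.8 Hox CPM, and GK 7 to 10 had 44.6, 39.1, 154 and 50.6. Paralogues 8 to 13 made up 37.0% of that sum in control 9 and 36.1% in GK 9, and from 13.5% to 17.8% in the other 6 libraries. The anterior paralogues 2 to 5 summed to 43.8, 39.0, 71.1 and 62.0 CPM in the controls and to 24.9, 28.9, 70.3 and 26.9 in GK. They were thus highest in the same libraries, close to control 10 in the controls and well above the rest in GK. No test was made between libraries, since they are not groups of the study. In bulk tissue, fewer cells of a type and less RNA per cell cannot be told apart. Nerve and Schwann cell markers were high and brown adipocyte markers low in the same libraries, with the values given above, and skeletal muscle markers were high in GK 9 but at 41.2 CPM in control 9, within the 17.9 to 46.8 of the controls. What part these have in the Hox values was not tested.

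**Figure D3:**
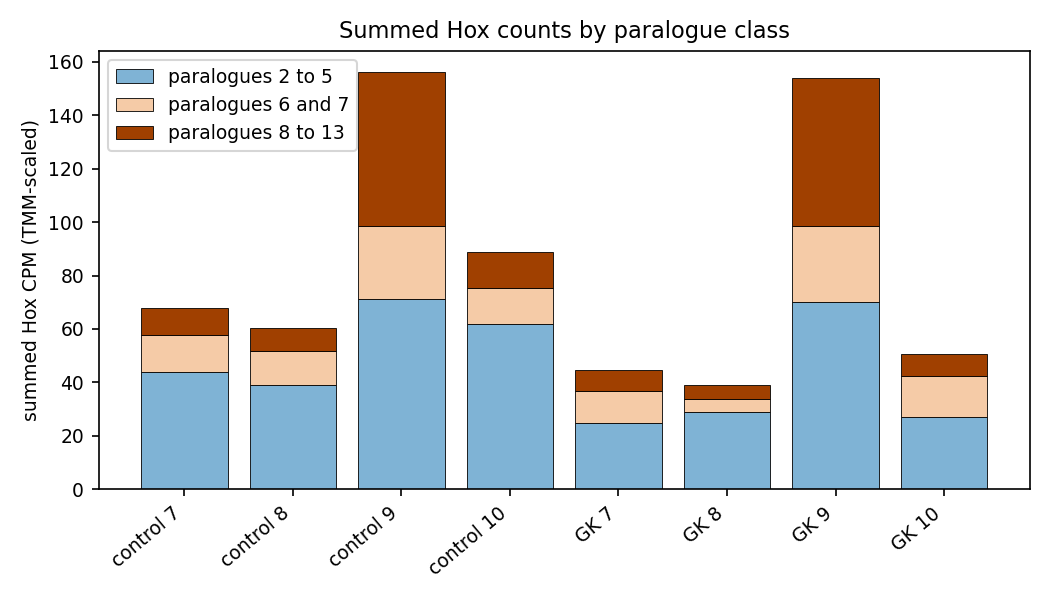
Summed CPM of the Hox genes in each library, stacked by paralogue number (2 to 5, 6 and 7, 8 to 13). The bars of control 9 and GK 9 reach 156 and 154, and their dark segment, paralogues 8 to 13, takes 37.0% and 36.1% of the bar.

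Between GK and control Wistar no Hox gene passed the test. Of the 20 genes 13 passed the filter on low counts, and 0 of these 13 were called by edgeR's quasi-likelihood test at a Benjamini-Hochberg adjusted p under 0.05, while 7.28% of all 13673 genes tested were (3.96% higher and 3.31% lower in GK). Hoxb8, Hoxb9, Hoxc9, Hoxc10, Hoxd3, Hoxd10 and Hoxd13 did not pass the filter, which asks for enough counts in several libraries; the counts of Hoxc10, for one, were all in control 9 and GK 9. At an unadjusted p under 0.05 there were 2 of 13, Hoxb4 and Hoxb2, beside 27.6% of all genes tested, and DESeq2 called 1 of 16 with an adjusted p, Hoxb4 (adjusted p = 0.0423), beside 16.2% of all genes that had one. The authors' deposited table calls none of the 20, its smallest q-value among them being 0.263 for Hoxb4, while 5.4% of its genes are called. Log2 fold changes of GK over control were below 0 for 12 of the 13 tested genes, with a median of -0.41, beside a median of 0.00 and 50% below 0 over all genes tested. Counts of a gene and of a transcript that overlaps it on the other strand cannot be told apart, since no use of strand is stated.

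Hoxb4 came closest to a call. Controls 7 to 10 had 16.4, 14.4, 15.2 and 22.9 CPM, and GK 7 to 10 had 8.83, 12.8, 12.6 and 9.29, which gives means of 17.2 ± 3.84 and 10.9 ± 2.13 (SD, n = 4). Every GK library was below every control, and it was the only tested Hox gene whose groups did not overlap with GK lower, 1 of 13, beside 7.64% of all genes tested; with GK higher it was 0 of 13, beside 7.93%, and in either direction 1 of 13, beside 15.6%. The log2 fold change was -0.66 ± 0.21 (SE), with an adjusted p of 0.0840 from edgeR's quasi-likelihood test. Neither library numbered 9 was the extreme of its group. With both left out, and also with GK 9 alone left out, Hoxb4 passed the threshold, at -0.80 ± 0.23 (adjusted p = 0.0490, edgeR, 3 libraries per group) and -0.72 ± 0.21 (adjusted p = 0.0446, edgeR). In these fits 18.7% and 22.1% of all genes tested were called, so a single call among the Hox genes is below the background share. Without control 10, the highest control, it was -0.50 ± 0.19 with an adjusted p of 0.205 from edgeR.

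Its neighbours in HoxB had estimates on the same side with wider error. Hoxb2 was at 1.98, 4.71, 3.75 and 4.98 CPM in controls and 1.82, 1.99, 2.84 and 2.04 in GK, a log2 fold change of -0.82 ± 0.33 (adjusted p = 0.149, edgeR). Hoxb3 was at 6.97, 8.50, 10.5 and 13.7 CPM in controls and 4.23, 6.45, 9.16 and 5.89 in GK, a log2 fold change of -0.62 ± 0.29 (adjusted p = 0.205, edgeR). In both genes the groups overlapped. Hoxb5 (-0.56 ± 0.50) and Hoxb6 (-0.41 ± 0.45) had errors nearly as large as the estimate or larger, and Hoxb7 was at 0.02 ± 0.47.

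In HoxC and HoxD the libraries numbered 9 held part of the spread. With both left out the SE was smaller for each gene tested in both fits, but still 0.90 for Hoxc8 and 0.45 for Hoxc6. Without GK 8 alone it was 0.43 for Hoxc6. With all libraries the SE was 1.27 for Hoxc8, 0.97 for Hoxc5 and 0.67 for Hoxc4, around estimates of -0.07, -0.22 and -0.15. A difference of 2-fold either way thus lies within 1 SE of the estimate for Hoxc8. Hoxc6 was at -0.18 ± 0.56, Hoxd4 at -0.43 ± 0.48, Hoxd8 at -0.21 ± 0.40 and Hoxd9 at -0.85 ± 0.67. No adjusted p in these 2 clusters was under 0.437 by edgeR. The direction of the median turned with which of these libraries was kept. Without control 9 the median log2 fold change of the 13 tested genes was 0.11 with 5 below 0, and without GK 9 it was -0.93 with 13 below 0.

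With both libraries left out, 14 Hox genes were tested in 3 libraries per group, and all 14 log2 fold changes were below 0, with a median of -0.62. Of these 14, 1 was called, Hoxb4, beside 18.7% of all genes tested (8.91% lower in GK). Groups did not overlap, with GK lower, for 4 of 14: Hoxb3, Hoxb4, Hoxc4 and Hoxd4, beside 20.1% of all genes tested. Hoxb3 was then at 9.13 ± 3.20 CPM in controls and 5.19 ± 1.10 in GK (SD, n = 3), Hoxc4 at 3.34 ± 0.95 and 1.76 ± 0.12, and Hoxd4 at 3.18 ± 0.53 and 2.33 ± 0.08. Their log2 fold changes were -0.82 ± 0.30, -0.92 ± 0.31 and -0.45 ± 0.26, with adjusted p of 0.0951, 0.0735 and 0.251 from edgeR. A share of 1 in 14 called lower is near the background of 8.91%. Smooth muscle markers summed to 5804, 12080 and 15424 CPM in the 3 controls kept and to 2774, 3679 and 6843 in the 3 GK libraries, fibroblast markers to 4193, 3246 and 6895 against 1001, 1713 and 1084, and brown adipocyte markers to 1552, 2852 and 881 against 4839, 4854 and 4205. The part of these lists in the Hox differences was not tested.

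**Figure D4:**
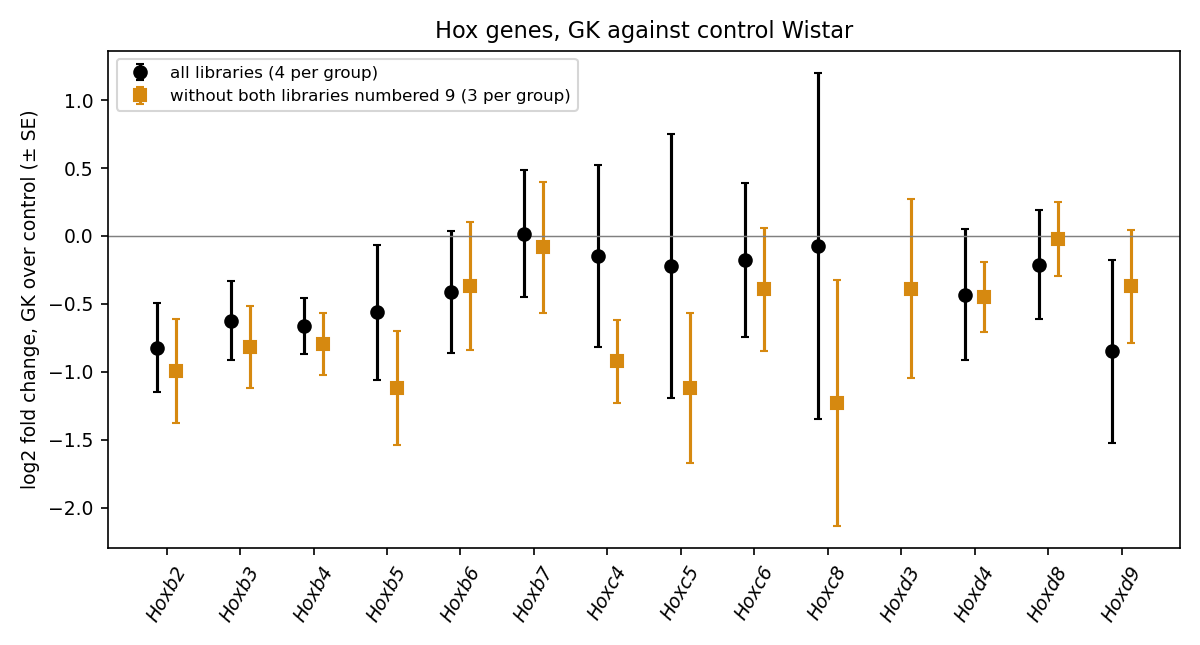
Log2 fold change of GK over control Wistar (± SE) for each tested Hox gene, with all 4 libraries per group (black) and without both libraries numbered 9 (orange, 3 per group). The SE of Hoxc4 goes from 0.67 to 0.31 and that of Hoxc5 from 0.97 to 0.55, and Hoxb4 keeps an estimate of -0.66 or -0.80.

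Hox clusters also hold long non-coding RNAs (lncRNAs), some of which act on the genes beside them. In the files' coordinates 31 lncRNA transcripts overlapped the spans of the 3 clusters given above. Of them 17 lay in HoxB, 8 in HoxC and 6 in HoxD, and 19 overlapped a Hox gene. Of the 13 that passed the filter 0 were called in GK against control by edgeR's quasi-likelihood test at an adjusted p under 0.05, beside 2.74% of the 11683 lncRNAs tested. There was 1 of 13 with an unadjusted p under 0.05, beside 17.9% of all lncRNAs tested, and DESeq2 called 0 of 15 with an adjusted p, beside 5.84%. All 13 log2 fold changes were below 0, with a median of -0.44, beside a median of -0.01 over all lncRNAs tested. The authors' list of 17441 pairs of lncRNA and target gene holds 0 pairs with a Hox gene as the target.

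The lncRNA with the most counts, MSTRG.38669.4, lies between Hoxc8 and Hoxc6 at chr7:144613820-144620284. It had 159, 96, 734 and 190 counts in controls and 75, 22, 794 and 86 in GK, and was thus highest in the libraries in which Hoxc8 was highest. NONRATT004804.2, which overlaps Hoxb6, had 145, 52, 198 and 153 counts in controls and 78, 36, 174 and 69 in GK. NONRATT004801.2, between Hoxb7 and Hoxb6, had 70, 49, 134 and 138 in controls and 67, 34, 167 and 49 in GK. Both HoxB transcripts varied less between libraries than the HoxC one. NONRATT027367.2, picked after its values were seen, lies between Hoxc10 and Hoxc9 and had 58 counts in control 9, 66 in GK 9, 1 in control 8 and 0 in the other 5 libraries. With no share over all lncRNAs counted beside it, both libraries numbered 9 were the highest for 11 of the 31 transcripts. With them left out, 1 lncRNA of the clusters was called, NONRATT004805.2, which overlaps Hoxb5 (log2 fold change -2.06 ± 0.40, adjusted p = 0.0388, edgeR), beside 4.32% of the 11596 lncRNAs then tested. With all libraries it was at -0.80 ± 0.72 (adjusted p = 0.613, edgeR), and the pair left out ran the other way, with 2 counts in control 9 and 19 in GK 9.

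Of the TALE cofactors, which bind DNA together with Hox proteins, 0 of the 9 tested were called in GK by edgeR. Their median log2 fold change was -0.37, with 8 of 9 below 0, beside 50% of all genes tested. At an unadjusted p under 0.05 from edgeR there were 2 of 9, beside 27.6% of all genes tested. Pbx2, a partner of Hox proteins, was at 49.2 ± 1.44 CPM in controls and 39.99 ± 7.01 in GK, a log2 fold change of -0.30 ± 0.14 (adjusted p = 0.198, edgeR). Without both libraries numbered 9, 2 of the 9 were called lower, among them Pknox2 (log2 fold change -1.25 ± 0.18, adjusted p = 0.00736, edgeR), and 0 higher, beside 8.91% lower and 9.74% higher of all genes tested. In mean FPKM of controls Pbx2 was above every Hox gene, at 16.3 ± 2.52 beside 10.6 ± 6.38 for Hoxc6, the highest Hox mean, although the values of Hoxc6 spread widely.

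Of the regulators of Hox clusters few were called, beside 3.96% called higher and 3.31% called lower of all genes tested. Of 28 tested Polycomb genes, 1 was higher and 0 lower in GK, with a median of -0.11. Bmi1, a subunit of the complex that marks histone H2A, rose from 25.4 ± 2.81 to 41.9 ± 8.84 CPM (log2 fold change 0.72 ± 0.18, adjusted p = 0.0480, edgeR). Its groups overlapped, with GK 9 at 29.0 CPM and control 7 at 29.4, and the authors' deposited comparison does not call it (q-value 0.098). Among 13 trithorax genes and H3K27 demethylases 0 were called, with a median of -0.01. The pair with the highest FPKM were the histone methyltransferase Ash1l (-0.14 ± 0.14) and the demethylase Kdm6b (0.41 ± 0.24). Of 6 other Hox regulators tested 0 were called, with a median of 0.05. The caudal (Cdx) genes on the same list were not found by symbol, so none was tested. The boundary protein Ctcf was at 0.12 ± 0.12 and the histone methyltransferase Dot1l at 0.85 ± 0.24 (adjusted p = 0.0674, edgeR). Without both libraries numbered 9 the Polycomb list had 2 called higher, Bmi1 among them, and 4 lower (Cbx2, Cbx6, Cbx7 and Phc1). The trithorax list had 0, and the list of other Hox regulators had 2 higher (Dot1l and Gmnn) and 0 lower. Of all genes tested in that fit, 9.74% were called higher and 8.91% lower.

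In the retinoic acid list, 1 of 14 tested genes was called lower and 0 higher, with a median of -0.28. Crabp2, which carries retinoic acid to its nuclear receptors, was at 4.26, 3.42, 9.32 and 4.16 CPM in controls and at 0.146, 0.343, 0.581 and 0.151 in GK. Every GK library was below every control, and the log2 fold change was -4.06 ± 0.54 (adjusted p = 0.00846, edgeR). Within each group Crabp2 was highest in the library numbered 9. Of 20 other homeobox genes tested, 2 were called higher and 1 lower, with a median of -0.06. Irx3, a patterning gene also known for its role in fat, rose from 0.295 ± 0.298 to 2.22 ± 0.89 CPM (log2 fold change 2.82 ± 0.60, adjusted p = 0.0312, edgeR). Its counts in controls 7 to 10 were 2, 1, 11 and 3, so all but control 9 were at or under the floor of 3 counts. Six5 fell from 23.3 ± 2.61 to 13.9 ± 2.45 CPM (-0.74 ± 0.16, adjusted p = 0.0339, edgeR). Each list count stands beside 3.96% of all genes tested called higher and 3.31% called lower. Without both libraries numbered 9 there were 3 lower in the retinoic acid list, Crabp2 and Cyp26b1 among them, and, among the other homeobox genes, 2 higher and 4 lower (Meox1, Prrx1, Six4 and Six5), beside 9.74% higher and 8.91% lower of all genes tested.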

How the data were processed

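RNA of thoracic aorta from 4 control Wistar and 4 GK libraries was grouped by title, strain and group label; source names, which say GK for controls too, were set aside. Per the file headers, the authors deposited unnormalised counts for each gene and each lncRNA transcript. The FPKM values in the same table are the authors' own, and the library size behind them was found to track total gene counts exactly (ratio 1 in all 8 libraries). The q-values are those of the authors' deposited comparison, from edgeR per the file headers, with version and test not given in the sources used here. Bowtie 0.12.2, mm8 and mm9 are named, without a role, per the submitters' processing notes; of the rat build and the use of strand the sources used here say nothing.

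From the counts, all 13673 genes that passed filterByExpr were fitted in edgeR 4.0.16 (R 4.3.3; TMM factors, quasi-likelihood F-test, group as the only term), with Benjamini-Hochberg adjustment over all of them and a threshold of 0.05; the lncRNA table was fitted in the same way on its own. The SE was taken as the estimate divided by the square root of F. CPM is the count over the library total times its TMM factor. Where a count is 0, 3 counts are given as the floor, for counting error only. Alternatives were RLE factors, library totals alone, DESeq2 1.42.0, no filter, the library number as a block, each library left out, both libraries numbered 9 left out, and other thresholds for expression. Expressed genes were also counted with FPKM rescaled by TMM factors. The test was tried on simulated data, in which the changed genes had high counts and all genes a small, equal spread. That trial does not measure its power for Hox genes of low count or wide spread. The members, gene lists and tests were chosen with earlier results of these data known. Genes named are the Hox genes, of which those tested that are called or among the 3 highest by mean FPKM of their cluster are given by library; called members of each other list, or with none the pair with the highest mean FPKM; and called lncRNAs, or with none the 3 with the most counts. Lists were described by counts and medians, with no test of a list; 211 of 238 list members were found by symbol. Values of some list members that the rule names are not reported here. Promoter sequences came from RefSeq (GRCr8) by symbol, and none of its coordinates were joined to those of the files.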

Additional observations from a re-analysis of the deposited data

Results flagged for a closer look

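In each group of 4 libraries, a value was picked out when its gap to the nearest of the others as a share of the whole range passed Dixon's critical value for 4 values. Of 76 groups of values 26 were picked out, and groups of different genes from the same library are not independent. The rate of about 1 in 20 by chance holds for normally distributed values and is no measure for these groups. A group with counts in 1 library only, as for Hoxc10 in both groups, is picked out whatever the value. NONRATT027367.2 was put in after its values were seen.

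Among the 40 groups of Hox values 16 were picked out, 6 in control 9 and 9 in GK 9. In control 9 these were the CPM of Hoxc8 (20.7), Hoxc9 (2.95), Hoxc10 (11.7), Hoxd4 (8.85), Hoxd9 (9.18) and Hoxd10 (1.21), each the highest control. In GK 9 they were Hoxb8 (0.710), Hoxb9 (1.23), Hoxc4 (10.97), Hoxc5 (19.4), Hoxc8 (25.4), Hoxc9 (4.77), Hoxc10 (12.5), Hoxd4 (6.65) and Hoxd13 (0.129 CPM, from 2 counts), each the highest GK library. The remaining one was Hoxb5 in control 8, the lowest control at 2.40 CPM with the next at 5.90.

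The share of Hox CPM from paralogues 8 to 13 stood out in control 9 (37.0%), and the summed Hox CPM in GK 9 (154). Of the lncRNAs, MSTRG.38669.4 had 734 counts in control 9 and 794 in GK 9, and NONRATT027367.2 had 58 and 66. Among the marker sums, nerve and Schwann cell markers stood out in control 9 (569.8 CPM) and GK 9 (1544), skeletal muscle markers in GK 9 (15536) and cardiac muscle markers in control 7 (502). Cardiac markers were also at 994 and 1951 CPM in GK 7 and GK 8, and at 5.82 to 11.3 in the other 5 libraries. What these marker sums have to do with the Hox values was not tested.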

How the results depend on the processing

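Of 182 log2 fold changes of tested Hox genes under alternatives, 156 kept their direction and side of the threshold, 3 newly passed it (all Hoxb4), and 23, in 8 genes, changed sign. Over libraries left out one at a time the lowest and highest values were -1.30 and 0.11 for Hoxd9, -0.93 and 0.0608 for Hoxd4, -0.45 and 0.24 for Hoxd8, -0.76 and 0.20 for Hoxc6, -1.91 and 0.59 for Hoxc5, -1.28 and 0.23 for Hoxc4, -2.33 and 1.05 for Hoxc8 and -0.28 and 0.25 for Hoxb7. For the first 7 the highest value was that without control 9. Hoxb7 was at -0.15 with library totals alone, a scaling that moved the median of all genes to -0.16, and at -0.0830 without both libraries numbered 9. The count of called Hox genes was 0 or 1 over libraries left out, 1 with DESeq2 and 1 without both libraries numbered 9; for cluster lncRNAs it was 1 in the last of these and 0 in all other alternatives. All genes called, 995, became 473 with library totals alone, 2433 with DESeq2, 654 without the filter, 2534 without both libraries numbered 9, 567, 591, 520 and 135 without controls 7 to 10 in turn, and 187, 180, 3046 and 294 without GK 7 to 10 in turn. Expressed Hox genes in controls were 4 at 2 FPKM or more, 14 when 2 libraries sufficed and 13 without control 8. In GK there were 2 at 2 FPKM or more. An alternative chosen after seeing the data, leaving out both libraries numbered 9, gave 9 and 8 expressed genes, as with all libraries. Under a rule that all libraries must pass, leaving some out can only add genes. The cause of these shifts was not tested.

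The libraries share numbers across groups, but the labels do not say what a number marks. Correlations of same-numbered libraries' deviations from their group means were 0.454, 0.147, 0.568 and -0.0139 for numbers 7 to 10. These values do not settle whether the numbers mark pairs, and the main fit did not take them as pairs. With the number as a replicate block 2372 genes and 0 Hox genes were called, with a Hox median of -0.63. The SE went from 0.97 to 0.38 for Hoxc5 and from 1.27 to 0.67 for Hoxc8, but from 0.21 to 0.22 for Hoxb4. Libraries 7 and 9 correlated best with their own number in both groups, and 8 and 10 did not. The 7 Hox genes outside the filter have no test in the edgeR fit at this depth.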
